A study of Homo sapiens with 9 samples.

Results

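The genes that write, copy and remove DNA methylation were followed across 9 RNA-sequencing libraries labelled as MDA-MB-231 cells, an established line of invasive triple-negative breast cancer. The group was named by function: *DNMT1*, *DNMT3A*, *DNMT3B*, *DNMT3L*, *TET1*, *TET2*, *TET3*, *UHRF1*, *UHRF2* and *TDG*, 10 of the 60708 genes counted, and all 10 were matched by symbol. Earlier results of these data were known when it was chosen. Of the libraries, 3 were labelled WT and 3 each were labelled CS16 and CS19, the *SNAI1*-KO lines. CS16 and CS19 are each a clone selected after transfection of CRISPR/Cas9 and repair plasmids against *SNAI1*, which encodes a zinc-finger repressor of epithelial genes. Each clone is thus 1 line rather than a sample of independent knockouts. All cells were untreated and grown in the same serum-containing medium. The labels number the libraries within a group but do not say that they came from separate cultures, so every p-value measures the spread between these libraries, which may be technical.

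DNA methylation in mammals sits mainly on the cytosine of CpG pairs. DNMT3A and DNMT3B place new methyl groups, with DNMT3L as a partner that has no catalytic activity of its own, while UHRF1 recognises half-methylated DNA behind the replication fork and brings in DNMT1 to copy the pattern to the new strand. The TET enzymes oxidise 5-methylcytosine to 5-hydroxymethylcytosine and further to forms that the glycosylase TDG cuts out, after which base excision repair restores an unmethylated cytosine. In breast cancer cells DNA methylation is known for silencing promoters of epithelial and germline genes and for keeping repeats quiet. Here only RNA was measured, not methylation, protein or enzyme activity, and in bulk RNA fewer cells of a type and less RNA per cell cannot be told apart.

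Depth ran from 19527195 to 28627777 counted read pairs per library. The clone libraries were checked against their labels, and they differed widely from WT. For *SNAI1* the WT libraries gave 16, 38 and 21 counts, the CS16 libraries 26, 40 and 49, and the CS19 libraries 57, 94 and 94, so that the counts of the targeted gene were not lower in the knockout libraries. In the test described below, *SNAI1* was higher in CS19 than in WT (edgeR adjusted p below 0.05). It did not pass in CS16 (log2 fold change 0.39, edgeR adjusted p = 0.474) or in both clones together (0.89, edgeR adjusted p = 0.0838). Counts over a whole gene do not tell edited from intact transcripts, so they cannot decide whether the knockout worked. The paper reports deletions within *SNAI1* in the reads of the knockout cells. It also reports lower RT-qPCR signal over the *SNAI1* exons and no detectable SNAI1 protein in both clones. *CDKN2A*, *CDKN2B* and *MTAP* were chosen because earlier results of these data had shown them without a count in WT. These genes, which are thus no independent check of the labels, had no count in the 3 WT libraries. Their mean level in CPM, the count scaled to the depth of its library, in the 6 clone libraries exceeded a floor of 3 counts per WT library by at least 352-fold for *CDKN2A*, 74.9-fold for *CDKN2B* and 658-fold for *MTAP*. Of 10 markers of basal B breast cancer cells, the class of MDA-MB-231, all 10 were lower in the clone libraries (adjusted p below 0.05), 9 of them past the log2 fold change of 2 used below. Their summed level was 10222 to 11908 CPM in the WT libraries and 345 to 398 CPM in the clone libraries, in which *CD44*, *S100A6* and *KRT19* had at most 3 counts in any library. The summed level of 8 embryonic kidney genes was 71.1 to 115.04 CPM in WT and 127 to 147 CPM in the clones. *PAX2*, *LHX1* and *SALL1* had at most 3 counts in every WT library, and *PAX8* and *OSR1* had at most 3 in every clone library. Sums of the markers of 9 mammary luminal genes were 1236 to 1595 CPM in WT and 244 to 293 CPM in the clones. For 7 prostate genes they were 43.0 to 56.8 CPM in WT and 34.3 to 42.3 CPM in the clones, with *KLK3* and *FOLH1* at the floor in every library. The sums of 6 haematopoietic genes were 2.00 to 3.56 CPM over all libraries. Those of 6 germ and pluripotent genes were 2.73 to 4.35 CPM in WT and 14.5 to 17.2 CPM in the clones. Only 2 of these 6 could be tested in both clones together, and they went opposite ways. *SOX2* was higher (log2 fold change 5.27) and *POU5F1* lower (-1.06), both with an adjusted p below 0.05. *NANOG* and *DPPA4* had at most 3 counts in every library. The sums of 6 fibroblast genes were 17.6 to 47.0 CPM in WT, 62.2 to 66.7 CPM in CS16 and 10.3 to 12.5 CPM in CS19. Among the WT libraries, replicate 2 (WT-2) was the odd one: its log2 CPM correlated at 0.952 with WT-1 and 0.948 with WT-3, while the other pair correlated at 0.995. In what follows "WT", "CS16" and "CS19" mean the libraries labelled so. The part of these differences between libraries in the results was not tested, and they cannot be told apart from the *SNAI1* genotype.

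The promoters are shown first because methylation of CpG pairs at promoters is the form of this mark most often tied to silencing. RefSeq promoter windows on GRCh38.p14, each 300 bases from 250 before a transcription start to 50 after it, were available for 9 of the 10 genes (20 windows, some of which overlap), and none was matched for *DNMT3L*. The windows held 3 to 46 CpG pairs, with a median of 26, beside a median of 14 over all 35116 windows of the table. *TET1* had 10 CpG pairs at its first start and *DNMT3B* had 3, while *UHRF1*, *DNMT3A* and *TET3* had windows with 46, 46 and 45 and the windows of *TET2* held 13 and 35. The *DNMT3B* window lies inside the counted gene model, downstream of that model's first exon, so it is not the only possible start. In the first pair of sequences below, both 5′ to 3′ on the plus strand, capitals mark CpG pairs: chr10:68560087-68560386 for *TET1* and chr20:32779602-32779901 for *DNMT3B*.
TET1: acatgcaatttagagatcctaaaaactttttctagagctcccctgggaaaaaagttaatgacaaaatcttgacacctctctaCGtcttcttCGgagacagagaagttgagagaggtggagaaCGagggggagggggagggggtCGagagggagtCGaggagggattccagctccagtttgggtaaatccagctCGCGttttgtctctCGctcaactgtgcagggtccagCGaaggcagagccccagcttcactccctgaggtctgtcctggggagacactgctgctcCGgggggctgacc
DNMT3B: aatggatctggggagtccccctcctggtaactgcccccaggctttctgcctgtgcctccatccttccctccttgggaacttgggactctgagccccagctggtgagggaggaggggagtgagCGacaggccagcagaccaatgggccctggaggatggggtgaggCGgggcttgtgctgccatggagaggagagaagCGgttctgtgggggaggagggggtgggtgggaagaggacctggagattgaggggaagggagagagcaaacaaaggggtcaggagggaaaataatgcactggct

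The same windows were searched for 2 motifs on both strands: the E-box CAGGTG, to which the SNAI1 protein is known to bind, and the E2F-type core, frequent at genes of S phase. The core was searched as TTCGCGC and as the variant TTGGCGC, with the reverse complement of each motif included. No match of one motif overlapped a match of the other. The E-box letters were in windows of 3 genes, *DNMT3A*, *TET3* and *UHRF2* (6 of the 20 windows), beside 20.6% of all windows in the table. The 6 windows include overlapping windows of *DNMT3A* that hold the same E-box letters, so they are not 6 separate sites. The E2F-type letters were in 1 window each of 4 genes, *DNMT1*, *UHRF1*, *UHRF2* and *TDG*, beside 5.06% of all windows. Neither motif was found in the windows of *TET1*, *TET2* or *DNMT3B*, which says only that these letters are not in those bases. The 4 windows with an E2F-type core are shown because they belong to genes that differed in both directions, *DNMT1* and *UHRF1* lower in the clones and *UHRF2* and *TDG* higher. Capitals mark the motif letters, the E-box and the core in that order for *UHRF2*. The windows are chr19:10194904-10195203 on the minus strand for *DNMT1*, and on the plus strand chr19:4909894-4910193 for *UHRF1*, chr9:6412949-6413248 for *UHRF2* and chr12:103965622-103965921 for *TDG*.
DNMT1: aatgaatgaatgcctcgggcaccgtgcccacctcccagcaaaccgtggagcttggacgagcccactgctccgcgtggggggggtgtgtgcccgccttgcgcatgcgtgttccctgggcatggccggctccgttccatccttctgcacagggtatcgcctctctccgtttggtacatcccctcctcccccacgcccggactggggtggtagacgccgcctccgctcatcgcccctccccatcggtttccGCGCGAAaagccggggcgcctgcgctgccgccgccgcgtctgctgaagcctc
UHRF1: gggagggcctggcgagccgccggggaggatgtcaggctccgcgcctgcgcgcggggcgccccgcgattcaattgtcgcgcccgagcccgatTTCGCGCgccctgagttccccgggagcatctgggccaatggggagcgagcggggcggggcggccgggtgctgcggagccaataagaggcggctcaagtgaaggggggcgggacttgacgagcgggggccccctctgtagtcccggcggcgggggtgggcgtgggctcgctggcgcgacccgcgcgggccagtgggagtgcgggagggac
UHRF2: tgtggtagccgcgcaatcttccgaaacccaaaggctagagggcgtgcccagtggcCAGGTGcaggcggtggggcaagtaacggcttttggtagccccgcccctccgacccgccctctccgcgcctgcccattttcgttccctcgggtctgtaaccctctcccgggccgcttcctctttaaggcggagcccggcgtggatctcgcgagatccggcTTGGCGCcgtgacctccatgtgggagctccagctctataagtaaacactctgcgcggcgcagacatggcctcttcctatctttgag
TDG: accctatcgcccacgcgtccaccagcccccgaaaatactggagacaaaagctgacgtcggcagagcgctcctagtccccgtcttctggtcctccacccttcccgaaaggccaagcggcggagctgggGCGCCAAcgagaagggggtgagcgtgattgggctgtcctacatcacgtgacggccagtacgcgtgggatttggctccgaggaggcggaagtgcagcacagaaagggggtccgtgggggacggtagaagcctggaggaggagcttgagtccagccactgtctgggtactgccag

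**Figure D1:**
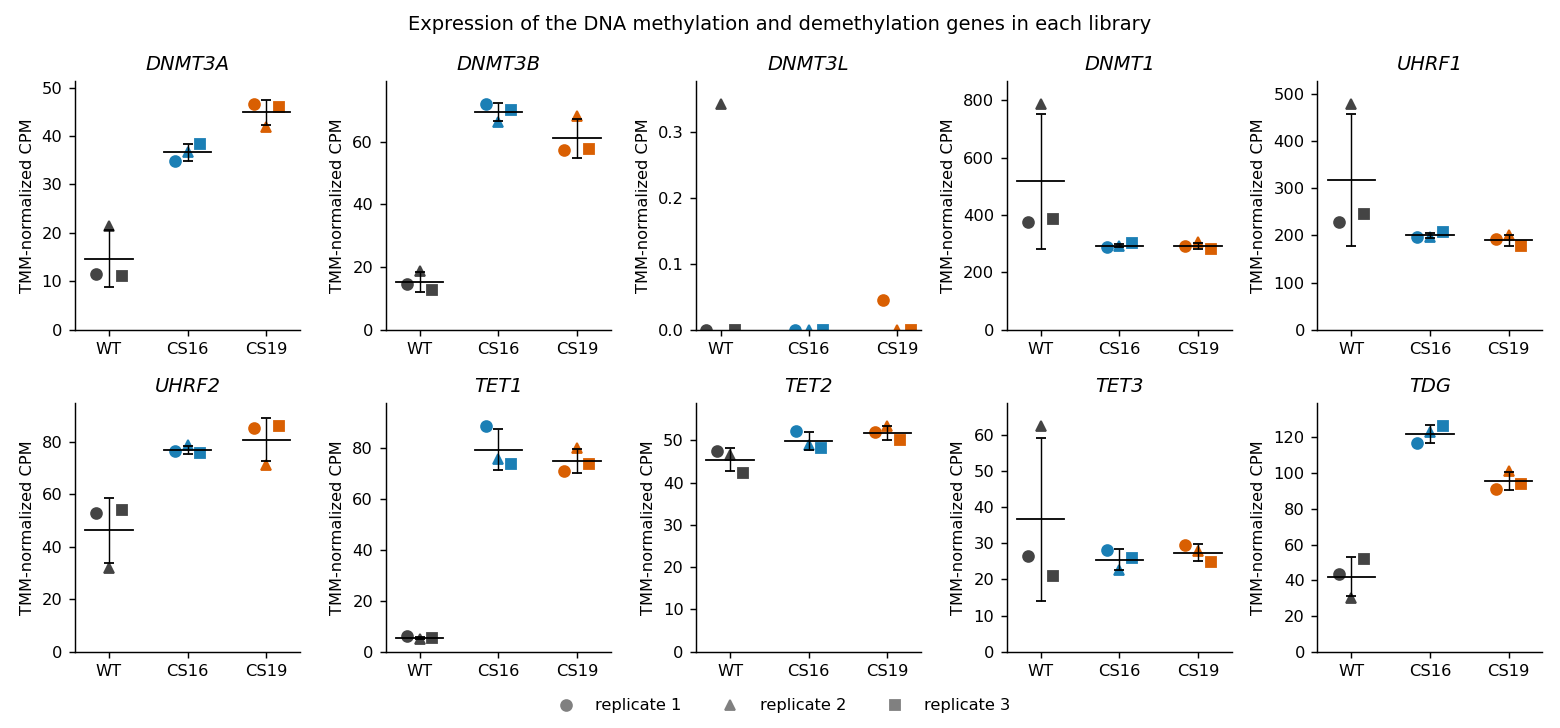
Each panel plots 1 gene, with the CPM normalized by TMM (trimmed mean of M values) on the y axis from 0 and the 3 groups on the x axis. Points are single libraries, with the shape giving the replicate number, and the line and bar are the mean ± SD of 3 libraries (not drawn for *DNMT3L*, which had 6 counts in 1 WT library and 1 count in 1 CS19 library). *TET1*, *DNMT3B*, *DNMT3A*, *TDG* and *UHRF2* sit higher in all 6 clone libraries than in any WT library, and WT-2 (triangle) is the highest WT point for *DNMT1*, *UHRF1*, *TET3*, *DNMT3A* and *DNMT3B*.

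RNA of *TET1*, *DNMT3B*, *DNMT3A*, *TDG* and *UHRF2* was 1.70-fold to 14.0-fold higher in the clones than in WT, and that of *DNMT1* and *UHRF1* was 1.77-fold and 1.63-fold lower. The test was the quasi-likelihood test of edgeR on the counts, and p-values were adjusted by the method of Benjamini and Hochberg over all genes tested. In *SNAI1*-KO against WT (6 libraries against 3), 9 of the 10 genes had enough counts to be tested and 7 passed an adjusted p of 0.05, with *TET1*, *DNMT3B*, *DNMT3A*, *TDG* and *UHRF2* higher and *DNMT1* and *UHRF1* lower. Of all 19631 genes tested, 63.7% passed at that threshold (31.1% higher and 32.6% lower), so passing the test was common in this comparison. The further cut-off of the study's methods, a log2 fold change of 2 or more, left *TET1* and *DNMT3B*, both higher, beside 26.9% of all genes. For 8 of the 10 genes the levels of the clone libraries did not overlap those of the WT libraries, the exceptions being *TET3* and *DNMT3L*, and the groups did not overlap for 58.3% of all genes tested. The median log2 fold change was 0.77 over the 9 genes tested and -0.0040 over all genes.

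*TET1*, the TET enzyme known for its high level in embryonic stem cells, differed most. Its counts were 122, 91 and 102 in WT, 1810, 1585 and 1857 in CS16, and 1565, 1844 and 2250 in CS19. Every clone library was thus far above every WT library, and the 3 WT libraries lay close together. The level was 5.49 ± 0.465 CPM in WT (SD, n = 3), 79.5 ± 8.13 in CS16 (SD, n = 3) and 75.0 ± 4.55 in CS19 (SD, n = 3). *TET1* rose 14.0-fold over both clones (log2 fold change 3.81 ± 0.16 SE, edgeR adjusted p = 3.53e-09), and by a log2 fold change of 3.88 in CS16 (edgeR adjusted p = 8.72e-06) and 3.81 in CS19 (edgeR adjusted p = 6.97e-06). It kept that size without WT-2 (3.77, edgeR adjusted p = 1.17e-09), since WT-2 held 5.21 CPM beside a mean of 5.64 in WT-1 and WT-3. The gene model shares no exonic base with another gene, and its processed copy *TET1P1* had no count.

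The other TET genes did not follow. *TET2*, the member most often mutated in blood cancers, had 958, 815 and 822 counts in WT, 1062, 1023 and 1211 in CS16, and 1140, 1230 and 1526 in CS19. The 6 clone libraries were all above the 3 WT libraries once scaled, at 49.8 ± 2.09 CPM in CS16 and 51.8 ± 1.70 in CS19 against 45.4 ± 2.75 in WT (SD, n = 3 each), but the difference did not pass the test (log2 fold change 0.16 ± 0.12 SE, edgeR adjusted p = 0.254). *TET3*, the form known to oxidise the paternal genome in the zygote, had 538, 1093 and 408 counts in WT, 573, 472 and 648 in CS16, and 648, 641 and 759 in CS19. WT-2 alone was high, at 62.5 CPM where the other 8 libraries lay between 21.0 and 29.5, and the groups overlapped. The log2 fold change of *TET3* in *SNAI1*-KO against WT was -0.47 ± 0.28 SE (edgeR adjusted p = 0.166). Without WT-2 it turned to 0.15 (edgeR adjusted p = 0.342), and without WT-3 it was -0.73 and passed the test (edgeR adjusted p = 0.0297), so its direction rested on WT-2 and its call on WT-3. Of its exonic bases, 3.01% are shared with an unnamed transcript that had no count.

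Both catalytic de novo methyltransferases rose. *DNMT3B* had 293, 327 and 245 counts in WT, 1468, 1385 and 1755 in CS16, and 1255, 1568 and 1762 in CS19. No clone library came near the WT range, which ended at 18.7 CPM where the clones began at 57.1. The level was 15.3 ± 3.13 CPM in WT, 69.4 ± 2.98 in CS16 and 61.0 ± 6.15 in CS19 (SD, n = 3 each), a 4.27-fold rise in the clones together (log2 fold change 2.10 ± 0.17 SE, edgeR adjusted p = 9.02e-07). Its log2 fold change was 2.21 in CS16 (edgeR adjusted p = 0.000119) and 2.04 in CS19 (edgeR adjusted p = 0.000196). These lie just above the cut-off of 2, and the value in *SNAI1*-KO against WT dropped to just below it, 1.998, when WT-3 was left out.

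*DNMT3A*, whose product is the main de novo enzyme of somatic tissues, had 233, 374 and 216 counts in WT, 710, 769 and 963 in CS16, and 1025, 965 and 1405 in CS19. The lowest clone library, at 34.9 CPM, was above the highest WT library, WT-2 at 21.4 CPM. The rise was 2.78-fold in *SNAI1*-KO against WT (log2 fold change 1.48 ± 0.23 SE, edgeR adjusted p = 0.000166), with a log2 fold change of 1.35 in CS16 (edgeR adjusted p = 0.00592) and 1.65 in CS19 (edgeR adjusted p = 0.00223). WT-2 held 1.89 times the mean CPM of WT-1 and WT-3, and leaving it out raised the log2 fold change to 1.84 in the clones together and to 2.01 in CS19. *DNMT3L*, the cofactor of germ cells, had 6 counts in WT-2, 1 in CS19-1 and none in the other 7 libraries, where a count of 0 allows up to 3 counts. It was not tested, and 12.96% of its exonic bases lie opposite an antisense gene that had no count. These limits, like all those given for counts here, cover counting error only.

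The pair that copies methylation at replication was lower in the clones, and the size depended on WT-2. *DNMT1* was the most heavily counted of the methyltransferases, with 7588, 13782 and 7540 counts in WT, 5876, 6081 and 7557 in CS16, and 6388, 7008 and 8565 in CS19. Scaled to depth, the 6 clone libraries lay between 281 and 304 CPM, all below WT-1 at 375 and WT-3 at 388, and far below WT-2 at 788. *DNMT1* fell by 0.82 on the log2 scale in *SNAI1*-KO against WT (0.21 SE, edgeR adjusted p = 0.00527). Without WT-2, which leaves only WT-1 and WT-3, the drop was smaller, with a log2 fold change of -0.39 (edgeR adjusted p = 0.00148). Against each clone alone with all 3 WT libraries *DNMT1* did not pass the test, at -0.79 in both CS16 (edgeR adjusted p = 0.0643) and CS19 (edgeR adjusted p = 0.0676). It passed without WT-2, at -0.38 in CS16 (edgeR adjusted p = 0.00195) and -0.37 in CS19 (edgeR adjusted p = 0.00233), and it also passed in each clone without WT-1 and without WT-3. With all 3 WT libraries kept, it passed in each clone when DESeq2 replaced edgeR and in a fit of all 3 groups. The call in single clones thus depended on the tool and the fit as well as on the WT libraries. The receptor gene *S1PR2* shares 83 bases (0.54%) of the *DNMT1* exons on the same strand and reached at most 386 counts.

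*UHRF1* was lower as well. It had 4613, 8382 and 4777 counts in WT, 4019, 4134 and 5187 in CS16, and 4216, 4608 and 5399 in CS19. On the CPM scale the clones spanned 177 to 207 and the WT libraries 228, 480 and 246, without overlap. *UHRF1* fell by 0.70 on the log2 scale in *SNAI1*-KO against WT (0.21 SE, edgeR adjusted p = 0.0117) and by 0.28 without WT-2 (edgeR adjusted p = 0.0144). In the clones taken singly the log2 fold change was -0.64 in CS16 (edgeR adjusted p = 0.112) and -0.71 in CS19 (edgeR adjusted p = 0.0877), neither past the test, and without WT-2 it was -0.24 (edgeR adjusted p = 0.0278) and -0.30 (edgeR adjusted p = 0.00907). *UHRF1* also passed in each clone in a fit of all 3 groups. WT-2 held 2.07 times the mean of WT-1 and WT-3 for *DNMT1* and 2.02 times for *UHRF1*. The proliferation marker *MKI67* was also highest in WT-2, at 1963 CPM beside 799 in WT-1 and 466 in WT-3, and lay between 184 and 277 CPM in the clones. *MKI67* is 1 of 18 listed genes of S phase and proliferation, and the list as a whole did not share this pattern. Its summed level was 5610 to 6158 CPM in WT, 5326 to 5565 CPM in CS16 and 5374 to 5768 CPM in CS19. The part of proliferation in the levels of *DNMT1* and *UHRF1* was not tested.

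*UHRF2*, the paralog that binds 5-hydroxymethylcytosine and does not replace UHRF1 in maintenance, went the other way. Its counts were 1071, 558 and 1049 in WT, 1556, 1645 and 1897 in CS16, and 1870, 1639 and 2623 in CS19. WT-2, which was high for *UHRF1*, was the lowest library for *UHRF2*, at 31.9 CPM against 52.9 in WT-1 and 53.9 in WT-3, and the clone libraries began at 71.2 CPM. The rise in *SNAI1*-KO against WT was 1.70-fold (log2 fold change 0.77 ± 0.18 SE, edgeR adjusted p = 0.00258), and 0.56 on the log2 scale without WT-2 (edgeR adjusted p = 0.000391). It passed in CS16 (0.76, edgeR adjusted p = 0.0246) and CS19 (0.84, edgeR adjusted p = 0.02001), but not when any 1 of the CS16 libraries was left out (edgeR adjusted p from 0.0728 to 0.0961), nor without CS19-1 (edgeR adjusted p = 0.0674) or CS19-3 (edgeR adjusted p = 0.0726). The pseudogene *UHRF2P1* had 50 counts over all libraries.

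*TDG*, which excises the oxidised forms that TET enzymes make, was higher in both clones. It had 879, 530 and 1011 counts in WT, 2376, 2580 and 3176 in CS16, and 2007, 2334 and 2864 in CS19. The 3 groups did not overlap: WT ended at 52.0 CPM, CS19 ran from 91.4 to 101 and CS16 from 116.7 to 127. *TDG* rose 2.60-fold in *SNAI1*-KO against WT (log2 fold change 1.38 ± 0.20 SE, edgeR adjusted p = 8.02e-05), with a log2 fold change of 1.58 in CS16 (edgeR adjusted p = 0.000755) and 1.23 in CS19 (edgeR adjusted p = 0.00264). Without WT-2 the values were 1.19 in the clones together, 1.36 in CS16 and 1.02 in CS19, all past the test.

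**Figure D2:**
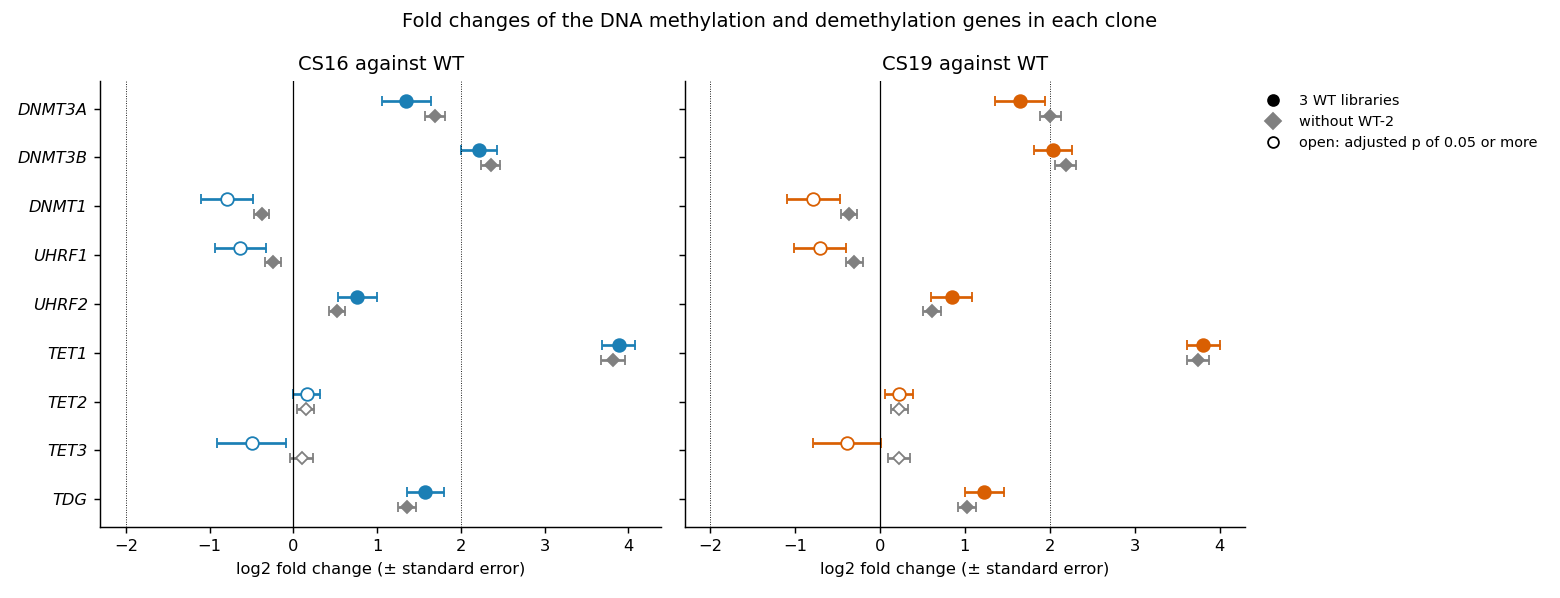
Log2 fold changes ± SE of the 9 genes tested, in CS16 against WT (left) and CS19 against WT (right). Circles use 3 WT libraries and grey diamonds leave out WT-2, open symbols did not pass an adjusted p of 0.05, and dotted lines mark log2 fold changes of -2 and 2. *TET1* stands near 3.8 in both panels, and *TET3* changes side of 0 without WT-2.

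Each clone was also set against WT by itself. In CS16 against WT, 5 of the 9 genes tested passed, all higher (*TET1*, *DNMT3B*, *TDG*, *DNMT3A* and *UHRF2*), beside 27.0% of all genes higher, 28.6% lower and 55.6% past the test in either direction. In CS19 against WT, 5 of the 9 passed, again all higher (*TET1*, *DNMT3B*, *DNMT3A*, *TDG* and *UHRF2*), beside 26.3% of all genes higher, 26.6% lower and 52.9% in either direction. *TET1* and *DNMT3B* reached a log2 fold change of 2 or more in each, beside 27.1% of all genes in CS16 and 26.4% in CS19. Without WT-2, 7 of the 9 genes passed in each clone, with *DNMT1* and *UHRF1* among them, and the share of all genes past the test was also larger, at 72.7% in CS16 and 71.2% in CS19 (67.2% in *SNAI1*-KO against WT). The 2 clone comparisons share the same 3 WT libraries, so they are not independent of each other.

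In CS16 against CS19, 2 of the 9 genes tested passed, *TDG* and *DNMT3A*. *TDG* was higher in CS16 than in CS19, at 122 ± 5.04 against 95.6 ± 5.19 CPM (SD, n = 3 each), a difference of 1.27-fold (log2 fold change 0.35 ± 0.064 SE, edgeR adjusted p = 0.00117). *DNMT3A* was lower in CS16, at 36.7 ± 1.76 against 44.9 ± 2.59 CPM (SD, n = 3 each), or 1.23-fold (log2 fold change -0.30 ± 0.079 SE, edgeR adjusted p = 0.0133). For both genes the 3 libraries of one clone did not overlap those of the other, as for 40.5% of all genes tested. These 2 of 9 genes stand beside 27.4% of all genes that passed between the clones, 14.7% higher and 12.7% lower in CS16. Neither passed in a fit of all 3 groups, in which the spread of the WT libraries is shared (edgeR adjusted p = 0.465 for *TDG* and 0.715 for *DNMT3A*). *DNMT3A* also lost the call without CS16-1, CS19-1 or CS19-3 (edgeR adjusted p from 0.0622 to 0.0681). *DNMT3B* was 69.4 CPM in CS16 and 61.0 in CS19 and did not pass (log2 fold change 0.18 ± 0.078 SE, edgeR adjusted p = 0.104), except without CS19-2 (0.27, edgeR adjusted p = 0.0176). For *TET1* the difference was 0.079 ± 0.080 SE on the log2 scale (edgeR adjusted p = 0.514) and for *DNMT1* it was 0.0021 ± 0.062 SE (edgeR adjusted p = 0.986). No gene of the group reached a log2 fold change of 2 between the clones, where 1.13% of all genes did (0.633% higher and 0.496% lower in CS16).

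To compare genes with each other, counts were divided by the length of the gene model and scaled to the same total in each library (TPM). That length merges all annotated exons of a gene, such as 15379 bases for *DNMT1*, 13782 for *DNMT3A* and 4630 for *DNMT3B*. Where the transcripts present are shorter than the model, the TPM is too low. The order of genes within a group therefore depends on these lengths. In WT the order of the mean TPM was *UHRF1* (202), *DNMT1* (110), *TDG* (27.1), *UHRF2* (14.8), *DNMT3B* (10.7), *TET3* (9.39), *TET2* (8.91), *DNMT3A* (3.48), *TET1* (1.84) and *DNMT3L* (0.211). The ranges of *UHRF1* and *DNMT1* overlapped there, as did those of the neighbours from *UHRF2* down to *TET2*. In CS16 the order was *UHRF1* (121), *TDG* (77.8), *DNMT1* (59.4), *DNMT3B* (46.9), *TET1* (26.0), *UHRF2* (24.1), *TET2* (9.44), *DNMT3A* (8.27) and *TET3* (6.20). *DNMT1* overlapped *DNMT3B*, *TET1* overlapped *UHRF2*, and *DNMT3A* overlapped both *TET2* and *TET3*. In CS19 it was *UHRF1* (112.3), *TDG* (59.4), *DNMT1* (57.7), *DNMT3B* (40.2), *UHRF2* (24.6), *TET1* (23.7), *DNMT3A* (9.85), *TET2* (9.55) and *TET3* (6.45). *TDG* and *DNMT1* could not be separated there, nor could *UHRF2* and *TET1* or *DNMT3A* and *TET2*. *TET1* thus stood just above *DNMT3L* in WT and above *TET2* and *TET3* in both clones.

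Within families the share of each gene differed between WT and the clones. *TET1* held 9.81 ± 2.78% of the summed TET TPM in WT (SD, n = 3), 62.3 ± 1.22% in CS16 and 59.7 ± 1.73% in CS19. Its lowest clone library, at 57.7%, was far above its highest WT library, at 11.5%. The summed TET TPM was 13.02 to 28.2 in WT, 34.3 to 51.4 in CS16 and 34.2 to 45.2 in CS19. *DNMT1* held 87.9 ± 1.93% of the summed DNMT TPM in WT, 52.0 ± 0.937% in CS16 and 53.6 ± 0.920% in CS19, and *DNMT3B* took 9.19 ± 1.99%, 40.8 ± 1.26% and 37.1 ± 1.84% in the same order (SD, n = 3 each). *DNMT3A* held 2.82% in WT, 7.24% in CS16 and 9.23% in CS19. WT-2 did not stand apart in these shares for *DNMT1*, which held 86.0% to 89.9% over the 3 WT libraries. The ratio of *DNMT1* to *DNMT3A* and *DNMT3B* together was 7.49 ± 1.54 in WT, 1.08 ± 0.0403 in CS16 and 1.16 ± 0.0438 in CS19 on the TPM scale (SD, n = 3 each). The summed DNMT TPM overlapped between the groups, at 79.1 to 196 in WT, 97.6 to 130 in CS16 and 92.3 to 124 in CS19. *UHRF2* held 8.10 ± 4.14% of the UHRF total in WT, with WT-2 lowest at 3.34%, 16.6 ± 0.593% in CS16 and 18.1 ± 2.33% in CS19. *TDG* stood at 0.163 ± 0.0846 times the TPM of *UHRF1* in WT, 0.642 ± 0.0176 in CS16 and 0.531 ± 0.0287 in CS19 (SD, n = 3 each). The size of these shares and ratios depends on the lengths of the gene models, which were the same in every library. These shares follow from the tests above and were not tested again.

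**Figure D3:**
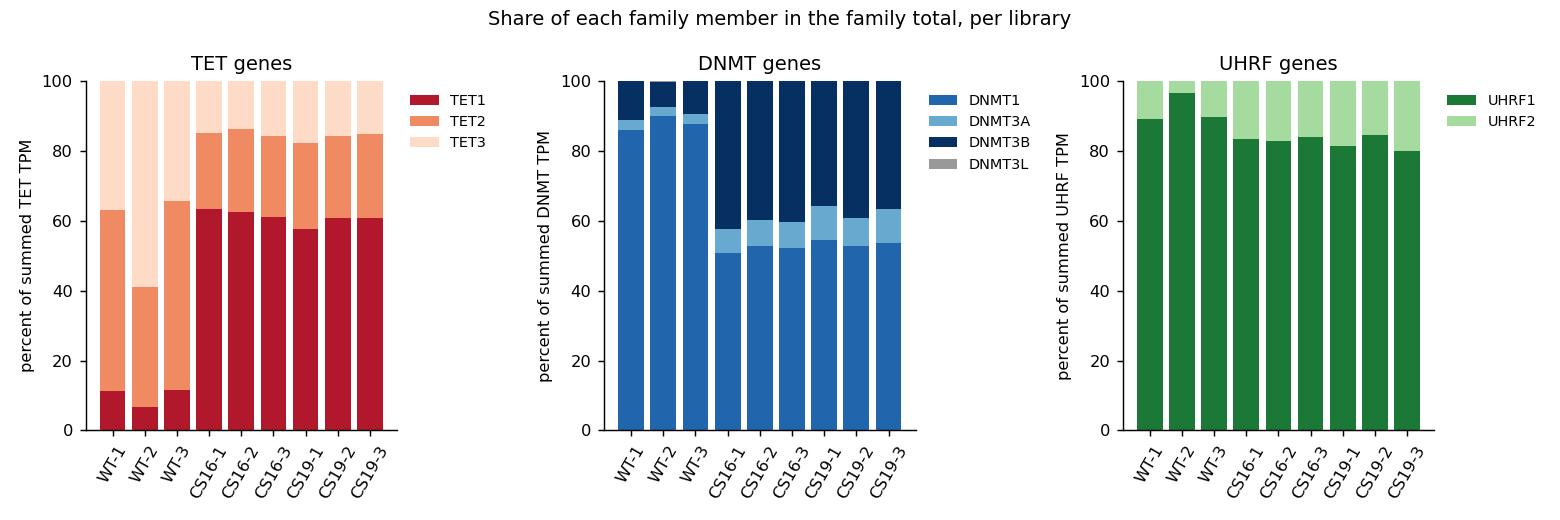
Stacked bars give each gene's percent of the summed TPM of its family in each of the 9 libraries, for the TET, DNMT and UHRF genes, from 0 to 100. *TET1* fills 57.7% to 63.4% of the TET bar in the clones and 6.60% to 11.5% in WT, and *DNMT3B* fills 35.6% to 42.2% of the DNMT bar in the clones and 7.08% to 11.03% in WT.

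Genes that work with these enzymes were described as lists, each read beside the 31.1% of all genes that were higher and the 32.6% that were lower in *SNAI1*-KO against WT. Of 8 readers of methylated CpG, 6 were lower and 2 higher. The median of the 8 fold changes was -0.80 on the log2 scale. *ZBTB38* fell by 2.77 on the log2 scale (0.15 SE, edgeR adjusted p = 2.12e-08) and *ZBTB4* by 2.78 (0.28 SE, edgeR adjusted p = 5.23e-06), both zinc-finger proteins that bind methylated DNA and repress. *ZBTB33*, which encodes the reader Kaiso, rose by 1.42 (0.28 SE, edgeR adjusted p = 0.000878), and *MBD4*, a glycosylase for mismatched bases at CpG sites, rose by 0.64 (0.17 SE, edgeR adjusted p = 0.00578). In the single clones fewer passed, 2 higher and 3 lower in CS16 and 2 higher and 2 lower in CS19, beside 55.6% and 52.9% of all genes. Without WT-2 the counts were 2 higher and 6 lower in CS16 and 2 higher and 5 lower in CS19, beside 72.7% and 71.2% of all genes.

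Of the 13 genes of base excision repair and the GADD45 family, which act after or beside TDG, 12 were tested, 7 were higher and 3 were lower, with a median log2 fold change of 0.82. *PARP1*, which senses strand breaks, held 237, 316 and 252 CPM in WT and from 1216 to 1663 CPM in the clones, a log2 fold change of 2.45 (0.19 SE, edgeR adjusted p = 4.90e-07). *APEX1*, the endonuclease that cuts where the base was removed, rose by 1.15 on the log2 scale (0.14 SE, edgeR adjusted p = 2.52e-05). The stress-induced *GADD45B* and *GADD45A* fell by 3.77 and 1.18 on the log2 scale (0.14 SE for both, edgeR adjusted p = 1.87e-09 and 2.27e-05). *GADD45B* lay between 58.8 and 76.2 CPM in WT and between 4.52 and 5.69 CPM in the clones.

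Of 22 genes whose products recruit or stabilise the methyltransferases, 20 were tested, 10 were higher and 5 lower, with a median log2 fold change of 0.28. *CDCA7* rose by 2.00 (0.15 SE, edgeR adjusted p = 3.23e-07) and *ZBTB24* by 1.97 (0.21 SE, edgeR adjusted p = 6.07e-06). Both are known as genes of the ICF syndrome of hypomethylated centromeres, as is *DNMT3B*. *CDCA7* ran from 27.5 to 37.7 CPM in WT and from 128 to 145 CPM in the clones, and its paralog *CDCA7L* fell by 1.16 on the log2 scale (0.11 SE, edgeR adjusted p = 3.23e-06). *NSD2*, which makes a histone mark that attracts DNMT3A, fell by 1.52 (0.21 SE, edgeR adjusted p = 5.88e-05).

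The genes that supply the methyl donor and the 2-oxoglutarate used by TET enzymes were higher in 9 of 14 tested, of 16 listed, and lower in none past the test, with a median of 0.70. The count of lower genes became 2 without WT-2. *MTR*, the methionine synthase, held 108 to 137 CPM in WT and 334 to 502 CPM in the clones (log2 fold change 1.70 ± 0.20 SE, edgeR adjusted p = 1.91e-05), and *MTHFD1*, of the folate cycle, rose by 1.14 (0.13 SE, edgeR adjusted p = 9.50e-06). Of 5 partners of TET enzymes, 3 were higher and 1 lower. *CXXC5*, which encodes a CpG-binding protein linked to loss of TET2 protein, fell by 1.53 (0.35 SE, edgeR adjusted p = 0.00254), and *WT1*, whose product recruits TET2, rose by 0.58 (0.17 SE, edgeR adjusted p = 0.0101). *SALL4* was near the floor, with 0, 0 and 1 counts in WT and 7 to 28 in the clones, and no fold is given for it. In the single clones fewer TET partners passed, 1 higher and 1 lower of 4 tested in CS16 and 2 higher and 1 lower of 5 in CS19. The shares of all genes past the test there were 55.6% and 52.9%. Without WT-2, 2 partners were higher and 1 lower in *SNAI1*-KO against WT, beside 67.2% of all genes past the test.

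Genes of S phase and proliferation were split, 6 higher and 5 lower of 18, with a median of 0.017. *MCM4* and *MCM6*, of the replicative helicase, rose by 1.31 (0.13 SE, edgeR adjusted p = 3.18e-06) and 0.99 (0.14 SE, edgeR adjusted p = 6.87e-05). *MKI67* fell by 2.22 (0.34 SE, edgeR adjusted p = 0.000125) and the regulator *E2F1* by 0.96 (0.12 SE, edgeR adjusted p = 3.72e-05). Without WT-2 the split was 6 higher and 9 lower, beside 34.0% of all genes higher and 33.2% lower.

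Of 29 germline genes known to be silenced by promoter methylation, 15 had at most 3 counts in each of the 9 libraries. By group, 21 had at most 3 counts in every WT library, 21 in every CS16 library and 22 in every CS19 library, and 7 could be tested, of which 2 were higher and 3 lower. *MAGEB2* had no count in WT and 935 to 2056 counts in the clones, at least 358-fold higher in mean CPM with the floor of 3 counts per WT library. *MAGEA12* had 3, 1 and 1 counts in WT, 903, 982 and 1212 in CS16, and 473, 517 and 730 in CS19, which makes both clones high and CS16 the higher. MAGE genes are near copies of each other, so reads may be split or lost between them, and these values are uncertain. *PAGE5* went the other way, with 33, 12 and 22 counts in WT and none in the 6 clone libraries, at least 8.89-fold lower in the clones with the floor of 3 counts per library. *MAEL*, of the pathway that silences transposons in germ cells, had 31, 23 and 42 counts in WT and 0 to 4 in the clones (log2 fold change -4.77 ± 0.59 SE, edgeR adjusted p = 2.54e-05).

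**Figure D4:**
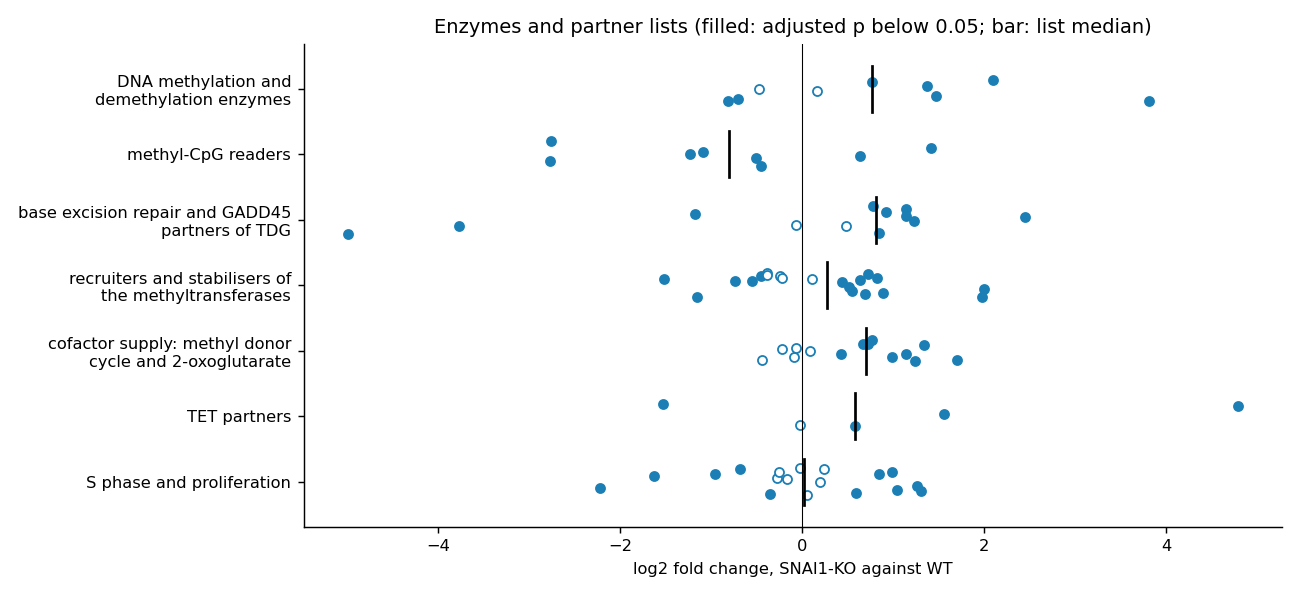
Each row is a list and each point a gene tested, at its log2 fold change in *SNAI1*-KO against WT on the x axis. Filled points passed an adjusted p of 0.05, the vertical spread has no meaning, and bars are list medians, such as 0.77 for the methylation and demethylation enzymes and -0.80 for the methyl-CpG readers. *SALL4* (TET partners) and the *GADD45G* point left of -4 were at or near the count floor in 1 group, and the germline list is not drawn.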

How the data were processed

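The authors removed ribosomal RNA, sequenced stranded libraries from both ends, trimmed reads with Trimmomatic 0.36, aligned them to GRCh38.p13 with STAR 2.7.2b and counted pairs of mapping quality 30 or more per gene with featureCounts (Subread 2.0.0) on gencode release 38. The deposited values are raw counts, whole numbers per gene and library with no normalization, and per the file headers strand was not used in the counting. Depth was 19527195 to 28627777 counts per library. Counts came without molecular identifiers.

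From these counts, CPM with TMM factors and TPM with the deposited gene lengths were computed. Genes passing filterByExpr were tested with edgeR 4.0.16's quasi-likelihood test (R 4.3.3, limma 3.58.1), each comparison in its own fit with no covariate, and p-values were adjusted by Benjamini-Hochberg over all genes tested. The script was tested on simulated data. Groups came from the labels, and no library was left out. The study's cut-off, an adjusted p below 0.05 and a log2 fold change of at least 2, was also applied. Positions of the gene models came with the deposited counts (gencode release 38), promoters from RefSeq (GRCh38.p14).

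The members and lists were chosen with earlier results of these data known. All members were named, and, from each list, the 2 risen and the 2 fallen genes of lowest adjusted p in *SNAI1*-KO against WT. *SNAI1* served to check the labels. *CDKN2A*, *CDKN2B* and *MTAP* were added because earlier results had shown them without a count in WT, so they were not an independent check. The alternatives were DESeq2 1.42.0, RLE and upper-quartile scaling, no filter, at least 10 counts in 3 libraries, a replicate block, a shared fit, omission of the 100 highest genes or of each library, and a log2 fold change of 1. Alternatives for the lists were added after seeing the data.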

Additional observations from a re-analysis of the deposited data

Results flagged for a closer look

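The 2 clones differed for *TDG* and *DNMT3A*, by the test of CS16 against CS19 itself. The log2 fold change was 0.35 for *TDG* (higher in 3 of 3 CS16 libraries than in any CS19 library) and -0.30 for *DNMT3A* (lower in 3 of 3), with edgeR adjusted p of 0.00117 and 0.0133, and 27.4% of all genes tested passed in this comparison.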

How the results depend on the processing

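Of 120 recounts of the genes past each threshold, 107 stayed within 1.5 times the value given, and of 522 refitted fold changes 488 kept their direction and their side of the threshold. With the cut-off at a log2 fold change of 1 in place of 2, the count past both thresholds was 4 in place of 2 in each of the 3 comparisons with WT. In the shared fit of 3 groups it was 1 for CS19 against WT. Leaving out 1 library gave 1 to 2 in *SNAI1*-KO against WT and 1 to 3 in CS19 against WT. Between the clones, the shared fit left 0 genes past an adjusted p of 0.05 and leaving out 1 library gave 1 to 3. With 1 library left out, the log2 fold change of *TET3* ran from -0.73 (without WT-3) to 0.15 (without WT-2, reversed) in *SNAI1*-KO, from -0.76 to 0.098 in CS16 and from -0.65 to 0.22 in CS19, for the same 2 libraries. Between the clones that of *DNMT1* reversed to -0.027 under upper-quartile scaling, -0.015 without CS16-3 and -0.018 without CS19-3 (highest 0.039), and that of *TET1* to -0.0066 without CS16-1 (highest 0.13). The cause was not tested.

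The replicate numbers did not pair the libraries. Correlations of the deviations of same-numbered libraries ran from -0.39 to 0.33. With the number as a block, *DNMT3A* lost its call between the clones, leaving 1 gene (edgeR adjusted p = 0.0632), and the calls over all genes there fell from 4814 to 3179. The shared fit gave 654. Without a filter, genes past both thresholds rose from 5272 to 8662 in *SNAI1*-KO, from 5045 to 7528 in CS16, from 4990 to 7513 in CS19 and from 198 to 352 between the clones, as more genes were tested. Depth limits *DNMT3L*, at or under 6 counts.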
